A study of Mus musculus with 6 samples.

Results

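The 32 genes described here carry glucose through the heart muscle cell: glucose transporters, the enzymes from hexokinase to lactate dehydrogenase, the bifunctional enzymes that tune phosphofructokinase, the glycogen enzymes, the entry to the pentose phosphate pathway, the glucose uptake inhibitor Txnip and the lactate transporter Slc16a1. They were taken by name from a list drawn up with earlier results of these data known, and all 32 names were found among the 55401 genes of the deposited table. Aldoa occurs there under 2 identifiers, so the names take 33 rows. Poly(A) RNA was sequenced from heart tissue of 6 C57BL/6 mice aged 6 to 8 weeks, 1 library per heart. The 3 control mice and the 3 mice given angiotensin II (Ang II, a peptide hormone that raises blood pressure and enlarges the heart) form the 2 groups, and no other allele or agent is named for them. The dose, route and duration of Ang II are not given in the sources used here.

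Glucose enters cardiomyocytes mainly through GLUT4, which insulin and contraction bring to the cell surface, and through the basal transporter GLUT1. Hexokinase traps it as glucose phosphate, which is either burned through glycolysis to pyruvate and lactate or stored as glycogen. The adult heart draws most of its energy from fatty acids, and a shift towards glucose is a known feature of hypertrophied and failing hearts.

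The libraries held 51202916 to 63564869 estimated counts, of which mitochondrially encoded genes took 35.8% to 47.6%. The cardiomyocyte markers Myh6 and Tnnt2 stood at 10010 to 21284 and 4447 to 7893 CPM (counts scaled to a common library size and given as CPM), as the tissue label states, and markers of skeletal muscle were near 0. Their summed level over 8 genes was 2.02 to 3.59 CPM, and Myh2 and Pvalb had no count. The extraction protocol in the labels speaks of adipose tissue, but 6 adipocyte markers summed to only 0 to 3.65 CPM, with Lep at 0 in every library. Ang II replicate 1 stood apart. Over 16759 genes tested it was the highest of the 6 libraries for 30.9% and the lowest for 31.6%, against 11.3% to 15.7% for each other library in either position. For the 32 glucose genes it was the highest for 13 and the lowest for 12, so results that rest on it are also given without it. Between replicates of a group the chi-square of the counts per degree of freedom ran from 31.6 to 442, so no replicate pair agreed within sampling noise.

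In control hearts the levels spanned more than 2 orders of magnitude in FPKM, the length-corrected unit in which genes can be compared. The muscle forms of phosphoglycerate mutase (Pgam2, 527 ± 76.5 FPKM, mean ± SD, n = 3), aldolase (Aldoa, 435 ± 164) and enolase (Eno3, 432 ± 78.2) came first, followed by the heart form of lactate dehydrogenase (Ldhb, 368 ± 88.7). The order of Pgam2, Aldoa and Eno3 was not the same in each control library, whereas the lowest Ldhb value, 269 FPKM, lay above the highest value of Pygm, 194 FPKM, the muscle glycogen phosphorylase that ranked next. GLUT4 (Slc2a4) stood at 56.7 ± 9.88 FPKM and GLUT1 (Slc2a1) at 1.98 ± 0.343 FPKM. At the lower end were the regulator Pfkfb3 (1.36 ± 0.127 FPKM) and the platelet-type phosphofructokinase Pfkp (1.31 ± 0.269 FPKM), whose ranges overlapped.

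**Figure D1:**
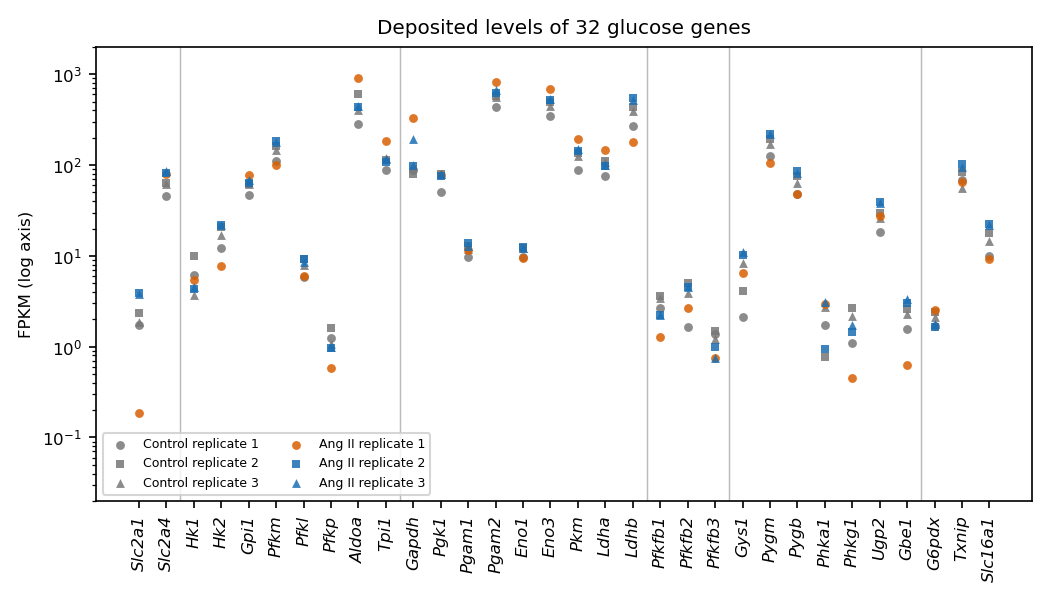
Deposited FPKM (log axis) of each of the 32 genes in each of the 6 libraries, with grey marks for control, orange for Ang II replicate 1 and blue for Ang II replicates 2 and 3; vertical lines part the roles. Pgam2, Aldoa, Eno3 and Ldhb lie at the top, and the orange mark of Slc2a1, at 0.187 FPKM, is the lowest of all.

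No glucose gene passed the test over all genes. By the quasi-likelihood test of edgeR, with p-values adjusted by the Benjamini-Hochberg method, 0 of 32 had an adjusted p under 0.05, where 0.0358% of all genes tested did, and the smallest adjusted p was 0.337. At an unadjusted p under 0.05 stood 5 of 32, against 7.51% of all genes tested. Slc2a4 and Ugp2 were higher, where the share of all genes is 3.57%, and Pfkp, Pfkfb1 and Pfkfb3 were lower, where it is 3.94%. The median log2 change of the 32 was 0.14, with 24 above 0 and 8 below, beside a median of 0.01 over all genes tested, of which 50.9% lay above 0. The FPKM ranges of the groups did not overlap for 8 genes, 5 higher and 3 lower in Ang II hearts, against 11.8% of all genes tested (7.76% higher and 4.01% lower). In CPM, a scale added after the data were seen, the number was also 8, against 17.2% of all genes (7.97% higher and 9.21% lower), with Ugp2 in place of Gpi1. Below, overlap is stated in CPM. DESeq2 on the same counts called 2 of the 32, Pfkfb1 lower and Ugp2 higher, where it called 1.65% of all genes. Called by limma's voom with quality weights, which down-weight libraries that stand apart, were the same 2 genes, against 2.08% of all genes.

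Without Ang II replicate 1, edgeR again called 0 of 32, with a smallest adjusted p of 0.0651, and 0.73% of all genes. At an unadjusted p under 0.05 there were then 13, against 15.4% of all genes tested: 9 higher (7.75% of all genes) and 4 lower (7.6%). The FPKM ranges did not overlap for 19 of 32, against 31.1% of all genes. The median of the 32 was 0.13 and that of all genes -0.01. The plot of changes with and without that heart shows which genes moved. The log2 changes of Aldoa, Tpi1, Ldha, Pgk1 and Phka1 went from above 0 to below 0, and that of Hk2 from -0.05 to 0.23. Those of Slc2a1, Ldhb, Gbe1 and Slc16a1 grew, and that of Gapdh shrank from 1.22 to 0.49. Shrinking too were Gpi1 (0.31 to 0.06), Pgam2 (0.42 to 0.14), Eno3 (0.43 to 0.11) and Pkm (0.48 to 0.17). The change of G6pdx went from -0.06 to -0.45, that of Hk1 from -0.47 to -0.73 and that of Phkg1 from -0.76 to -0.43.

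**Figure D2:**
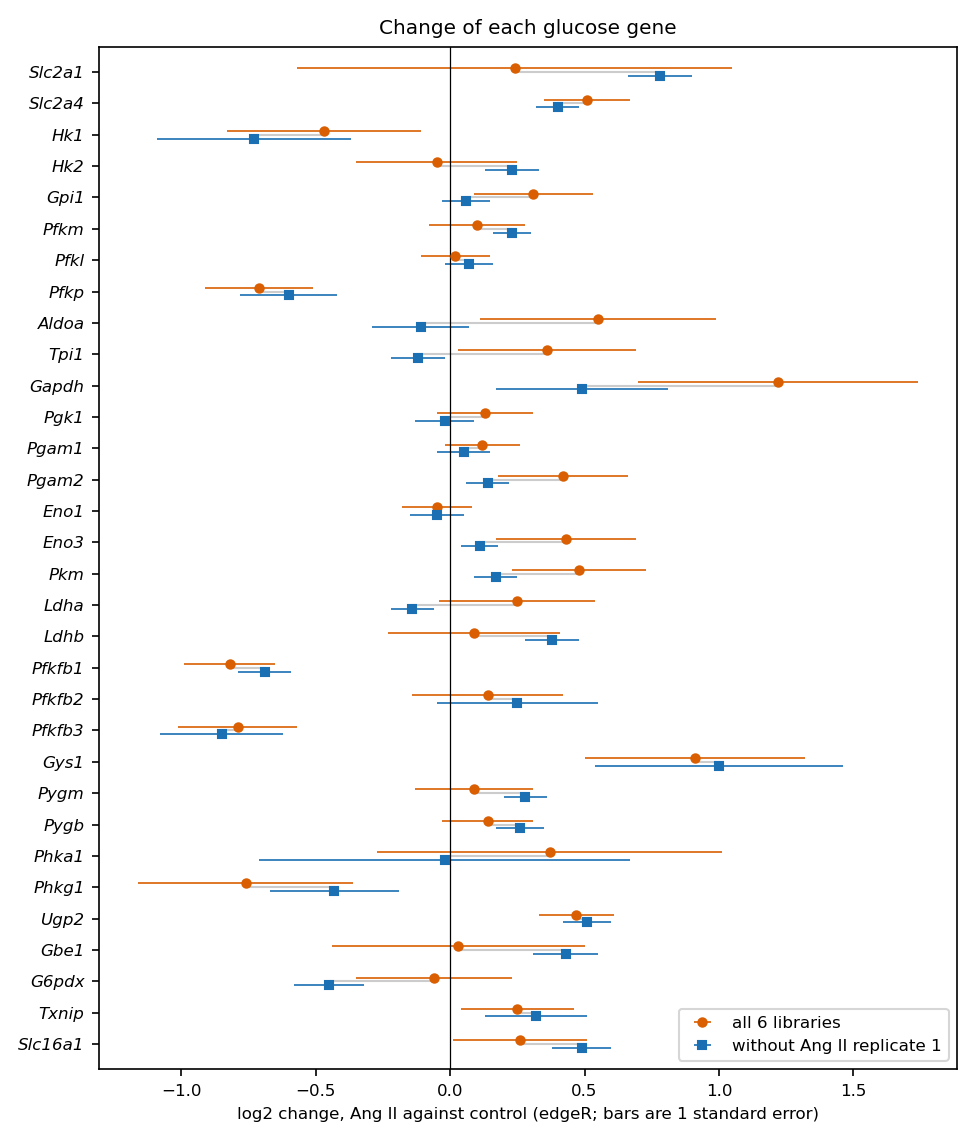
Log2 change in Ang II against control hearts for each of the 32 genes, from edgeR with all 6 libraries (orange circles) and without Ang II replicate 1 (blue squares); bars are 1 standard error. Pfkfb1, Pfkfb3, Pfkp, Ugp2 and Slc2a4 keep nearly the same place in both fits, while Slc2a1 goes from 0.24 to 0.78.

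The insulin-responsive transporter GLUT4 and the basal transporter GLUT1 differed in how the Ang II hearts stood. Slc2a4 (ENSMUSG00000018566; GRCm38 chromosome 11, 69942539 to 69948175, minus strand) stood at 214, 207 and 228 CPM in control and at 357, 278 and 290 CPM in the Ang II hearts numbered 1, 2 and 3. All 3 Ang II hearts lay above all controls, at 1.65, 1.29 and 1.34 times the control mean. Its log2 change was 0.51 (SE 0.16; adjusted p = 0.536, edgeR), and 0.40 (SE 0.08, adjusted p = 0.117) without Ang II replicate 1. Slc2a1 (ENSMUSG00000028645; chromosome 4, 119108711 to 119137983, plus strand) stood at 8.19, 7.87 and 6.87 CPM in control and at 0.851, 13.4 and 12.8 CPM in Ang II hearts. Ang II replicate 1, with 37 counts of this gene, lay far below the controls, and the other two above them at 1.76 and 1.67 times the control mean. With all libraries the log2 change was 0.24 (SE 0.81; adjusted p = 0.947, edgeR), and without replicate 1 it was 0.78 (SE 0.12, adjusted p = 0.0721).

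Hexokinase genes, whose enzymes trap glucose in the cell, had groups that overlapped. Hk2, the main form of adult muscle, stood at 98.2, 118 and 108 CPM in control and at 59.8, 128 and 125 CPM in Ang II hearts. Hk1, the form bound most firmly to mitochondria, stood at 70.5, 80.3 and 33.4 CPM in control and at 59.4, 36.7 and 37.0 CPM in Ang II hearts. Control replicate 3 was thus as low in Hk1 as Ang II replicates 2 and 3.

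Phosphofructokinase commits sugar to glycolysis, and its muscle form Pfkm made up most of its transcripts. Pfkm stood at 497, 514 and 513 CPM in control and 435, 612 and 582 CPM in Ang II hearts, with Ang II replicate 1 below and replicates 2 and 3 above every control. The liver-type gene Pfkl stayed between 52.3 and 60.8 CPM in all 6 libraries (log2 change 0.02, SE 0.13). The platelet-type gene Pfkp (chromosome 13, 6579768 to 6648777, minus strand) stood at 22.5, 20.5 and 15.4 CPM in control and 10.1, 12.9 and 12.8 CPM in Ang II hearts. All Ang II values lay below all controls, and the log2 change was -0.71 (SE 0.20, adjusted p = 0.489, edgeR), with -0.60 (SE 0.18) when replicate 1 was left out. Pfkp lies antisense to Pitrm1.

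The bifunctional enzymes make and break the sugar bisphosphate that activates phosphofructokinase, and the genes of this group with the smallest p were lower in Ang II hearts. Pfkfb1 (ENSMUSG00000025271; chromosome X, 150588229 to 150643878, plus strand), the gene of the liver and skeletal muscle forms, stood at 14.6, 13.8 and 14.5 CPM in control and 6.69, 8.93 and 8.69 CPM in Ang II hearts. The control values were tight (14.3 ± 0.451 CPM, n = 3) and every Ang II heart was below them. Its log2 change was -0.82 (SE 0.17); adjusted over all genes, p was 0.337 by edgeR and 0.00389 by DESeq2. Without replicate 1 the log2 change was -0.69 (SE 0.10). Pfkfb1 lies antisense to Apex2, which had 163 to 322 counts beside 291 to 916 for Pfkfb1. Pfkfb3 (ENSMUSG00000026773, chromosome 2, 11471433 to 11554077, minus strand), the inducible form, stood at 14.3, 10.6 and 9.82 CPM in control and 7.36, 7.35 and 5.44 CPM in Ang II hearts. Here too the groups did not overlap, with a log2 change of -0.79 (SE 0.22, edgeR adjusted p = 0.487), and of -0.85 (SE 0.23) when replicate 1 was left out. The annotated span of Pfkfb3 meets those of Gm37975 on the same strand and Gm10851 on the other. Pfkfb2, the form known as the heart isozyme, stood at 16.4, 34.2 and 30.2 CPM in control and 25.1, 32.4 and 31.7 CPM in Ang II hearts, with groups that overlapped.

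Endothelial cells, which depend on glycolysis and express Pfkfb3 and Slc2a1, are part of heart tissue, and fewer cells of a type and less RNA per cell cannot be told apart in these samples. The summed level of 8 endothelial markers was 769 to 812 CPM in control and 597 to 682 CPM in Ang II hearts, and 6 of the 8 had groups that did not overlap, all lower. Of all genes tested, 9.21% were lower and 7.97% higher without overlap. Red blood cell markers, which include the glycolytic side enzyme gene Bpgm, summed to 817 to 2058 CPM in control and 455 to 605 CPM in Ang II hearts, with 7 of 8 lower and not overlapping. Summed over 8 genes, fibroblast markers stood at 1457 to 1525 and 1197 to 1401 CPM, with 3 lower and 0 higher without overlap. Macrophage markers summed to 138 to 155 and 114 to 236 CPM, with 2 of 7 lower and 0 higher without overlap. Smooth muscle markers summed to 567 to 674 and 451 to 632 CPM, and 0 of 6 had groups that did not overlap. The sums of 6 neutrophil markers were 3.96 to 12.5 CPM in control and 2.94 to 4.64 CPM in Ang II hearts. Of these 6, 4 were tested and 1 was lower without overlap. Of the 6 adipocyte markers, which were near 0, 4 were tested and 3 were lower without overlap. For 8 cardiomyocyte markers the sums were 38562 to 44367 and 42008 to 50151 CPM, with 1 higher and 0 lower without overlap. Of 5 atrial markers, 3 were tested and all were higher without overlap, led by Nppa, a peptide gene that ventricles also turn on in hypertrophy, at 104 to 147 and 268 to 411 CPM. The part of these cell types in the lower levels of Pfkfb3, Pfkp and Pfkfb1 was not tested.

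The enzymes from aldolase to lactate dehydrogenase set Ang II replicate 1 apart from the other hearts more than they set the groups apart. Aldoa, which splits the hexose bisphosphate, stood at 1134, 1688 and 1246 CPM in control and at 3452, 1262 and 1251 CPM in Ang II hearts. Its second identifier had 4 counts in 1 control and 7 in 1 Ang II library, none elsewhere, and did not pass the filter. Tpi1, the triose isomerase, stood at 329, 302 and 349 CPM in control and at 660, 289 and 312 CPM in Ang II hearts. In both genes replicate 1 was 2.55 and 2.02 times the control mean and the remaining pair of Ang II hearts were within the control range or just under it.

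The muscle forms Pgam2 and Eno3 and the pyruvate kinase gene Pkm were higher in every Ang II heart than in every control, though by little outside replicate 1. Eno3 stood at 816, 821 and 831 CPM in control and at 1557, 884 and 893 CPM in Ang II hearts, a log2 difference of 0.43 (SE 0.26; adjusted p = 0.737 by edgeR). Pgam2 stood at 500, 459 and 501 CPM against 883, 521 and 552 CPM. Pkm, whose M1 and M2 splice forms are not told apart by a count per gene, stood at 606, 649 and 661 CPM against 1239, 709 and 726 CPM, a log2 difference of 0.48 (SE 0.25; adjusted p = 0.708 by edgeR). Replicates 2 and 3 were at 1.07 to 1.14 times the control means of these 3 genes, and without replicate 1 the log2 changes were 0.14, 0.11 and 0.17. Gpi1, which makes fructose phosphate, was likewise high in replicate 1 alone, at 655 CPM beside 378 to 432 CPM elsewhere. The ubiquitous forms Eno1 (62.1 to 71.1 CPM) and Pgam1 (24.4 to 29.8 CPM), and Pgk1 (156 to 224 CPM), the first enzyme of the pathway to make ATP, had groups that overlapped.

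Lactate dehydrogenase is built from muscle-type (Ldha) and heart-type (Ldhb) subunits, and both genes were shifted in Ang II replicate 1, in opposite directions. Ldha stood at 344, 345 and 374 CPM in control and 625, 318 and 324 CPM in Ang II hearts, so that replicate 1 was above and the other two below every control. Ldhb stood at 574, 656 and 654 CPM in control and 366, 849 and 782 CPM in Ang II hearts, with replicate 1 below and the other two above every control. Without replicate 1 the log2 changes were -0.14 (SE 0.08, edgeR adjusted p = 0.473) and 0.38 (SE 0.10, adjusted p = 0.165). Slc16a1, which carries lactate across the cell membrane, followed Ldhb in this order, at 60.1, 75.1 and 67.5 CPM in control and 52.7, 96.7 and 93.2 CPM in Ang II hearts.

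**Figure D3:**
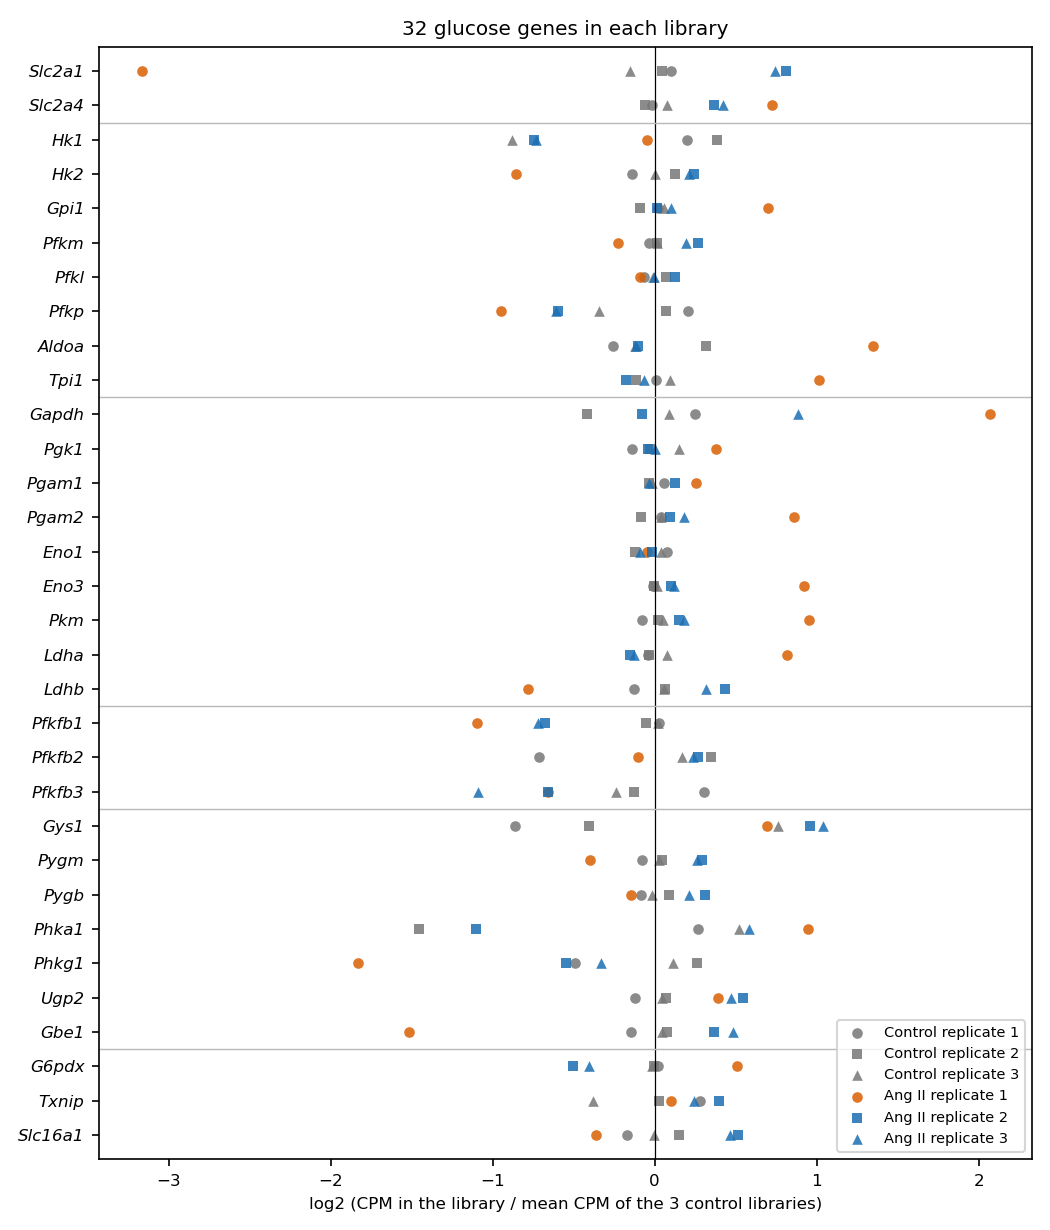
Each mark is the CPM of a gene in a library divided by the mean of the 3 control libraries, on a log2 axis, with grey marks for control, orange for Ang II replicate 1 and blue for Ang II replicates 2 and 3; grey lines part the roles. The orange marks lie to the right for Gapdh, Aldoa and Tpi1 and to the left for Slc2a1, Phkg1 and Gbe1, at 4.19, 2.55, 2.02, 0.111, 0.283 and 0.351 times the control mean, while for these genes the blue pair lie closer to 0.

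Gapdh, the dehydrogenase whose transcript is often used as a reference, needs its copies in view. The mouse genome holds many retroposed copies of it, and 156 genes of the deposited table were at least 90% identical to the Gapdh coding sequence over at least 50% of its length. Of these, 136 had counts, and they held 51.4% to 80.2% of all counts on Gapdh and copies together. The copies with most counts were Gm5559, Gm7336, Gm12070 and Gm13394. A stretch of the coding sequence, bases 418 to 507 counted from the first base of the longest annotated coding sequence (1077 bases), is shown because it holds the only difference from Gapdh within the aligned part of Gm5559, Gm12070 and Gm13394. Capitals mark the positions at which any of them differ; the sequences are from GENCODE M21 transcripts.
Gapdh: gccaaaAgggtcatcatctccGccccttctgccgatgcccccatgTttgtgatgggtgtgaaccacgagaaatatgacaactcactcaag
Gm5559: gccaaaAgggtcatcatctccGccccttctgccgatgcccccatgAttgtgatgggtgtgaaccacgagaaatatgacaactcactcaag
Gm7336: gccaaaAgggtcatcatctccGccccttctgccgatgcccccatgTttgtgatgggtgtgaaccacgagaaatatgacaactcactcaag
Gm12070: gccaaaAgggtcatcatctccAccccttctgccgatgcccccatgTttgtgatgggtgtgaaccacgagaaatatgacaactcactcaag
Gm13394: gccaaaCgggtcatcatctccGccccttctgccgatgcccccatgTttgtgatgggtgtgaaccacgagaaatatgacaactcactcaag

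In that numbering Gm5559 carries T463A, Gm12070 G439A and Gm13394 A424C. Gm7336 had 0 differences over 1017 aligned bases. The runs of identical sequence shared with Gapdh were 614 bases long in Gm5559, 1017 in Gm7336, 638 in Gm12070 and 653 in Gm13394, longer than the library inserts of 300 ± 50 bp. Counts of Gapdh and its copies can therefore be split between them.

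Gapdh itself (ENSMUSG00000057666; chromosome 6, 125161715 to 125165773, minus strand) stood at 496, 312 and 443 CPM in control and at 1748, 395 and 771 CPM in Ang II hearts. The groups overlapped, and the log2 change was 1.22 (SE 0.52; adjusted p = 0.664, edgeR), or 0.49 (SE 0.32) without replicate 1. With its copies added, a sum chosen after the data were seen, the values were 1778, 1577 and 1754 CPM in control and 3598, 1809 and 2042 CPM in Ang II hearts. On that sum the groups no longer overlapped and the log2 change was 0.54 (SE 0.29; adjusted p = 0.708, edgeR). The share of the sum that fell on copies was 72.1%, 80.2% and 74.8% in the control libraries and 51.4%, 78.2% and 62.2% with Ang II, lowest in the 2 libraries where Gapdh alone was highest. Among the other members copies took 11.4% to 17.0% for Eno1, 3.5% to 11.9% for Pgam1, and at most 2.82% for Pgk1, the next highest. Adding the copies moved no other log2 change by more than 0.05.

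**Figure D4:**
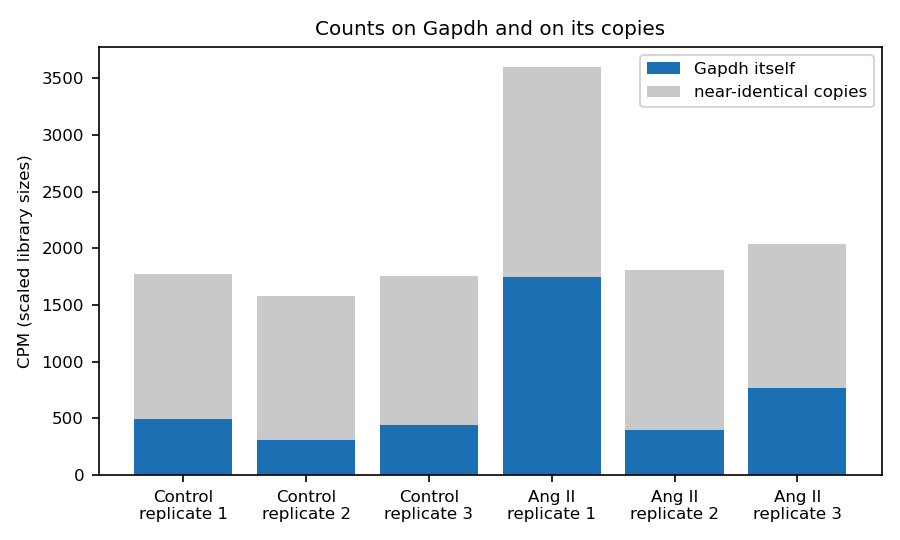
Stacked bars of CPM on Gapdh itself (blue) and on its 156 near-identical copies (grey) in each of the 6 libraries. Gapdh alone runs from 312 to 1748 CPM, while the sum runs from 1577 to 2042 CPM in 5 libraries and reaches 3598 CPM in Ang II replicate 1.

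Genes of glycogen synthesis and breakdown had 6 of 7 log2 changes above 0, with a median of 0.14, and 0.28 without Ang II replicate 1. Ugp2 (ENSMUSG00000001891; chromosome 11, 21321138 to 21371201, minus strand), which makes the UDP-glucose from which glycogen is built, stood at 75.5, 86.3 and 84.8 CPM in control and 108, 120 and 114 CPM in Ang II hearts. Each Ang II heart, replicate 1 included, was above each control, at 1.31, 1.46 and 1.39 times the control mean. The log2 change was 0.47 (SE 0.14); adjusted over all genes, p was 0.513 by edgeR and 0.0347 by DESeq2. Without replicate 1 the change was 0.51 (SE 0.09), while in FPKM the groups overlapped. The annotated span of Ugp2 meets those of Mir1933 on the same strand and Gm12043 on the other. Gys1, the muscle glycogen synthase, stood at 13.7, 18.8 and 42.2 CPM in control and 40.2, 48.5 and 51.2 CPM in Ang II hearts. Control replicate 3 lay within the Ang II range, and the log2 change was 0.91 (SE 0.41; adjusted p = 0.679, edgeR), or 1.00 (SE 0.46) without replicate 1. Gys1 lies antisense to Ruvbl2, which had 570 to 1184 counts beside 625 to 3642 for Gys1.

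Glycogen phosphorylase frees glucose units from glycogen, and phosphorylase kinase switches it on. The muscle phosphorylase Pygm stood at 544, 591 and 583 CPM in control and 435, 701 and 687 CPM in Ang II hearts. The brain form Pygb stood at 311, 350 and 325 CPM against 298, 408 and 381 CPM. Both were below every control in Ang II replicate 1 and above every control in replicates 2 and 3. The branching enzyme gene Gbe1 had the same order, at 11.3, 13.2 and 12.9 CPM in control and 4.37, 16.1 and 17.5 CPM in Ang II hearts. Phkg1, the catalytic subunit of muscle phosphorylase kinase, stood at 9.76, 16.4 and 14.8 CPM in control and 3.86, 9.37 and 10.9 CPM in Ang II hearts. It overlaps the antisense gene Sumf2, which had 148 to 635 counts beside 168 to 1094 for Phkg1. Reads from bases that both genes share cannot be told apart if the libraries are unstranded. Phka1, a regulatory subunit of that kinase, ran from 4.53 to 17.8 CPM in control and from 5.77 to 23.9 CPM in Ang II hearts, with groups that overlapped.

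The remaining members stand beside glycolysis. G6pdx, the entry enzyme of the pentose phosphate pathway that yields NADPH, stood at 7.13, 7.00 and 6.93 CPM in control and 9.98, 4.95 and 5.31 CPM in Ang II hearts. Replicate 1 was above and the other two below the tight control range. Txnip, which binds thioredoxin and restrains glucose uptake, stood at 294, 247 and 186 CPM in control and 260, 319 and 286 CPM in Ang II hearts, with groups that overlapped, a log2 difference of 0.25 (SE 0.21; adjusted p = 0.796 by edgeR).

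Ratios between isoform genes of a step do not depend on how libraries are scaled. Of 10 ratios of FPKM, 4 had groups that did not overlap, all lower in Ang II hearts: Pfkp to Pfkm, Eno1 to Eno3, Pfkfb1 to Pfkfb2 and Pfkfb3 to Pfkfb2. Each reached the smallest p that a two-sided exact permutation test of 3 against 3 can give, 0.1, and adjusted over the 10 ratios it was 0.25, so no ratio could pass. Pfkfb1 stood at 1.61, 0.725 and 0.864 times Pfkfb2 in control and at 0.482, 0.497 and 0.494 times in Ang II hearts. The Ang II values lie within a narrow range, and control replicate 1, where Pfkfb2 was low, is far above the other controls. Pfkp was 0.0112, 0.0099 and 0.00745 times Pfkm in control and 0.00575, 0.00523 and 0.00544 times in Ang II hearts, again with close Ang II values. Eno1 was 0.0244 to 0.0281 times Eno3 in control and 0.0135, 0.0243 and 0.0229 times in Ang II hearts, where replicate 2 lay just under the lowest control. Pfkfb3 was 0.839, 0.297 and 0.311 times Pfkfb2 in control and 0.282, 0.217 and 0.164 times in Ang II hearts. There replicate 1 lay just under the lowest control. The Pfkfb1 and Pfkfb3 ratios share the denominator Pfkfb2, low in control replicate 1, and are not independent.

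For both Ldha to Ldhb and Slc2a4 to Slc2a1 the direction turned on Ang II replicate 1. Ldha was 0.285, 0.25 and 0.271 times Ldhb in control and 0.81, 0.177 and 0.196 times in Ang II hearts. The log2 ratio differed by 0.18 with all libraries and by -0.52 without replicate 1. Slc2a4 was 26.4, 26.5 and 33.5 times Slc2a1 in control and 425, 20.9 and 22.9 times in Ang II hearts, a difference of 1.04 in the log2 ratio with all libraries and of -0.39 without replicate 1. Pygb to Pygm lay between 0.371 and 0.458 in all 6 libraries, the narrowest range of the 10 ratios on the log2 scale.

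**Figure D5:**
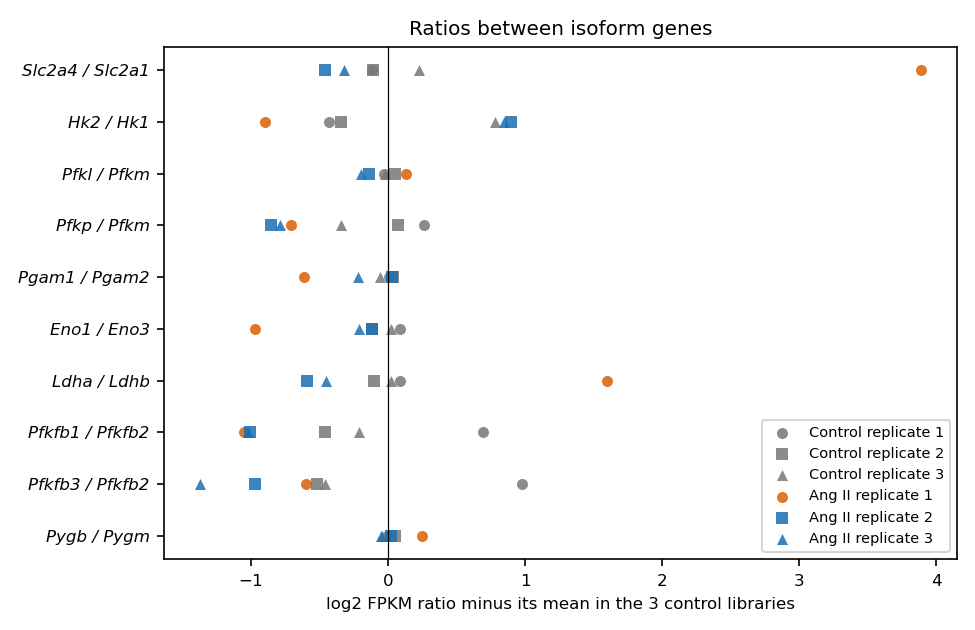
Log2 ratio of FPKM between isoform genes of a step in each library, less the mean of the 3 control libraries, with grey marks for control, orange for Ang II replicate 1 and blue for Ang II replicates 2 and 3. Orange lies far to the right for Slc2a4 to Slc2a1 and Ldha to Ldhb, and all coloured marks lie left of all grey ones for Pfkp to Pfkm, Eno1 to Eno3, Pfkfb1 to Pfkfb2 and Pfkfb3 to Pfkfb2.

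The members that were highest and lowest in Ang II replicate 1 differed in median transcript length, with ranges that overlapped. The 13 highest had longest annotated transcripts of 840 to 6115 bases (median 1825) and the 12 lowest of 1304 to 8681 bases (median 3495). Their median GC content was 52.8% and 52.4%. The 7 members at neither end had transcripts of 2027 to 4801 bases (median 3678). Across the 32 members the log2 deviation of that library from the control mean had a Spearman rho of -0.34 with transcript length, 0.31 with GC content and 0.44 with level. Across 16739 genes with an annotated transcript rho was -0.29, 0.14 and 0.01. Genes of a library share its depth and handling, so these are descriptions. The shortest, Pgam2 (840 bases), was among the highest and the longest, Pfkp (8681 bases), among the lowest. Ldhb, at 1304 bases, was among the lowest, and Phka1, at 6115 bases, among the highest. The sarcomere genes Myl2 (11330 CPM beside 6282 to 7133 elsewhere) and Myh6 (10010 CPM beside 13729 to 21284) also lay at opposite ends in that heart. The part of length or RNA quality in these values was not tested. Of all counts outside the mitochondrial genes and their 4 most abundant nuclear copies, the 32 genes took 1.76%, 1.94% and 1.85% in the control libraries and 2.52%, 1.89% and 1.97% with Ang II.

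Glycolytic genes are classical targets of hypoxia-inducible factors, whose sites hold the letters ACGTG, and of carbohydrate-sensing factors that bind CACGTG. Promoter windows of 300 bases, from 250 before to 50 after a start, were found for 31 of 32 members in RefSeq (GRCm38.p6), 48 windows in all. ACGTG was found on either strand in 21 of the 48 windows (43.8%), of 17 members, and in 19.6% of all 32851 windows. CACGTG, which contains ACGTG on both strands, was found in 5 windows (10.4%), of Ldha, Pfkfb2, Pfkfb3, Pfkm and Slc16a1, and in 7.15% of all. Members with several starts have overlapping windows, and a match is a description of letters. The 250 bases before a start are shown for Ldha, with the most matches among members, and for Pfkfb3, a member with lower values in every Ang II heart that has CACGTG; capitals mark ACGTG on either strand.
Ldha, chr7:46845554-46845803, plus strand: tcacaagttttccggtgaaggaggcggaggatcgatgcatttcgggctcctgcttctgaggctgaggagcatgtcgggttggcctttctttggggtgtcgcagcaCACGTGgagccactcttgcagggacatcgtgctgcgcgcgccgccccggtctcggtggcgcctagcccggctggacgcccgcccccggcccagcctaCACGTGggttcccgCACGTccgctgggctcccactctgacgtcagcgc
Pfkfb3, chr2:11502091-11502340, minus strand: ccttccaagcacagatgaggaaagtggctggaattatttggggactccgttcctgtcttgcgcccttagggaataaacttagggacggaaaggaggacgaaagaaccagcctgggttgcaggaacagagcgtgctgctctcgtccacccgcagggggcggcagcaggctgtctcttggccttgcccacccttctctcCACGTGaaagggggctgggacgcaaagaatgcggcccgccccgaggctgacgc

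These letters stand in the Ldha stretch 3 times, 2 of them as CACGTG, and in the Pfkfb3 stretch 1 time. Outside replicate 1 Ldha was at 0.897 and 0.914 times the control mean and Pfkfb3 at 0.635 and 0.47 times. The other members with CACGTG were above the control mean there. Pfkm was at 1.2 and 1.15 times, Pfkfb2 at 1.2 and 1.17 and Slc16a1 at 1.43 and 1.38. A link between these letters and the levels was not tested. Of 13 hypoxia factor genes and their targets outside glycolysis, 0 were called by edgeR with all libraries. There 1 stood higher and 0 stood lower with p under 0.05 before adjustment, against 3.57% and 3.94% of all genes. The list's median log2 change was 0.19. Without Ang II replicate 1, 5 stood higher and 2 lower at that p, against 7.75% and 7.6% of all genes. The median of the list was then 0.04. Bnip3, a mitophagy receptor induced by hypoxia, stood at 60.7, 66.2 and 66.0 CPM in control and 86.4, 80.8 and 79.1 CPM in Ang II hearts, all above the controls. Adm, the vasodilator adrenomedullin, stood at 6.59, 7.40 and 5.43 CPM against 3.24, 5.35 and 4.46 CPM.

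Other genes of glucose metabolism also gave no call in edgeR with the 6 libraries. Among 13 tested genes of 20 in a list of further glycolysis genes, 2 stood higher and 2 lower with p under 0.05 before adjustment. Of all genes tested, 3.57% stood higher and 3.94% lower at that p. The list's median log2 change was -0.07. Without Ang II replicate 1, 1 stood higher and 2 lower at that p by edgeR, against 7.75% and 7.6% of all genes. The list's median was then 0.11. Bpgm, which makes the bisphosphoglycerate of red blood cells and was chosen after its values were seen, had a log2 change of -0.41 (SE 0.15, edgeR adjusted p = 0.593).

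In the list of further glycogen genes 25 of 27 were tested. By edgeR 3 stood higher and 0 lower with p under 0.05 before adjustment, against 3.57% and 3.94% of all genes. The median log2 change was 0.03, with 14 above 0 and 11 below. In CPM 4 genes were higher and 3 lower without overlap, against 7.97% and 9.21% of all genes. Without Ang II replicate 1, 7 stood higher and 0 lower at that p by edgeR, against 7.75% and 7.6% of all genes. The list's median was then 0.16. Pgm1, a phosphoglucomutase that links glycogen to glycolysis, stood at 116, 124 and 123 CPM in control and 174, 154 and 151 CPM in Ang II hearts, with no overlap. Ppp1r3g, a subunit that brings protein phosphatase to glycogen, was below 0.6 CPM in every library, though higher in each Ang II heart. Its adjusted p was 0.487 in edgeR and 0.0309 in DESeq2. Ppp1r3a, the muscle subunit of that kind, was the list's 1 gene called by edgeR without Ang II replicate 1 (log2 change 0.93, adjusted p = 0.041), was also called by voom with quality weights (adjusted p = 0.0447) and was chosen after its values were seen. It stood at 22.8, 27.3 and 23.8 CPM in control and 18.4, 46.5 and 47.4 CPM in Ang II hearts, with replicate 1 below and the other two above every control.

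Lists for the pentose phosphate pathway (9 tested, median -0.05), the hexosamine and polyol pathways (10, -0.03), lactate and pyruvate transport (7, 0.10), AMP-activated kinase (8, 0.01) and insulin signalling with GLUT4 traffic (23, -0.03) had 0 genes at an unadjusted p under 0.05 in edgeR with all libraries. Over all genes tested the share at that p was 7.51%. Without Ang II replicate 1, 6 of the 23 insulin genes stood higher and 0 lower at that p, against 7.75% and 7.6% of all genes. The pentose phosphate list then had 1 higher and 2 lower. The hexosamine and polyol list and the kinase list each had 1 higher and 1 lower, and the transport list had 0 either way. Of the 9 pentose phosphate genes 1 was higher and 3 were lower without overlap, against 7.97% and 9.21% of all genes. The transaldolase gene Taldo1 stood at 35.3 to 37.1 CPM in control and 40.6 to 48.9 CPM in Ang II hearts, and the transketolase gene Tkt at 24.1 to 28.9 and 17.6 to 24.0 CPM. In the hexosamine and polyol list 2 of 10 genes were lower and 0 higher without overlap, against 9.21% and 7.97% of all genes. Of these, Uap1, which makes the activated sugar for protein glycosylation, stood at 18.5 to 20.2 and 9.36 to 16.3 CPM. The fructose kinase gene Khk stood at 7.94 to 8.40 and 6.27 to 7.24 CPM. Among AMP-activated kinase genes 0 had separate groups, where 17.2% of all genes did. Its subunit gene Prkab2 had a log2 change of 0.30 and Stk11, which encodes a kinase that activates it, of -0.36. In the insulin list 2 of 23 genes were lower and 0 higher without overlap, against 9.21% and 7.97% of all genes. Among the 2 was Sort1, which sorts GLUT4 into its storage vesicles. Sort1 stood at 18.1 to 22.5 CPM in control and 15.7 to 17.2 CPM in Ang II hearts. The insulin receptor substrate gene Irs2 stood at 3.85, 5.66 and 4.71 CPM in control and 4.21, 10.8 and 10.2 CPM in Ang II hearts, with an adjusted p of 0.679 in edgeR and 0.0434 in voom with quality weights. The mitochondrial pyruvate carrier gene Mpc2 stood at 132, 116 and 153 CPM against 330, 156 and 172 CPM, all above the controls. The lactate exporter gene Slc16a3 stood at 0.569 to 1.70 CPM in control and 1.64 to 3.36 CPM in Ang II hearts. In the list of 8 relatives and regulators of Txnip 2 stood higher and 0 lower with p under 0.05 before adjustment (median 0.19). The shares of all genes at that p were 3.57% higher and 3.94% lower. The 2 were Arrdc3, an α-arrestin related to Txnip, and Txn2, the mitochondrial thioredoxin. Arrdc3 stood at 12.8, 13.6 and 11.7 CPM in control and 13.2, 25.1 and 27.8 CPM in Ang II hearts, and without replicate 1 its adjusted p by edgeR was 0.0385, with a log2 change of 1.06; voom with quality weights called it too (adjusted p = 0.0221). Txn2 stood at 70.4, 61.5 and 63.2 CPM against 87.7, 79.8 and 77.1 CPM.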

How the data were processed

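Paired-end poly(A) libraries from 3 control and 3 Ang II hearts were compared. The authors deposited 1 table of 55401 Ensembl genes with whole-number estimated counts and FPKM per library, in which an FPKM of 0.0001 stands for 0. The submitters' processing notes name Bowtie 0.12.2, HISAT2 2.0, StringTie 1.3.0 and the build mm8, with no role. Of the shared gene identifiers 94.2% have the coordinates of GENCODE M21 (GRCm38), which is used here. Strandedness is not given in the sources used here, and 19 of the 32 genes overlap another annotated gene, 16 of them one on the other strand.

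The counts, estimates in whole numbers, were tested with edgeR 4.0.16 (TMM scaling, filterByExpr, quasi-likelihood test, two-sided, R 4.3.3) over 16759 genes with Benjamini-Hochberg adjustment and a threshold of 0.05. CPM uses the TMM-scaled library size, and SE is the log2 change divided by the square root of F. Alternatives were DESeq2 1.42.0, limma 3.58.1 on log2(FPKM + 0.5) for genes with at least 0.5 FPKM in 3 libraries, other pseudocounts, scalings and filters, voom with quality weights, a replicate block, and leaving out each library. Copies of members were found with BLAST 2.17.0 in the GENCODE transcripts, counting pseudogenes and genes that match at least 90% of the coding sequence. The scripts were tested on simulated data. All 32 members are named, and of each other gene list the 2 tested genes with the smallest edgeR p, while Ppp1r3a and Bpgm were added after their values were seen. The genes this rule names in the list of further glycolysis genes are not reported here. The members and lists were chosen with earlier results of these data known. No column was left unmapped to a sample. Replicates are separate hearts by their labels.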

Additional observations from a re-analysis of the deposited data

How the results depend on the processing

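The number of genes called over the whole table, 6 in edgeR, was 12 with no filter on low counts, 276 in DESeq2, 348 in voom with quality weights, and 3, 2 and 3 in limma on log2 FPKM with 0.5, 0.1 and 1 added. Glucose genes called numbered 2 in DESeq2 and 2 in voom with quality weights (Pfkfb1 and Ugp2 in each) and 0 under every other setting run. Leaving out 1 library at a time gave 0 to 129 genes called over the whole table, with 129 without Ang II replicate 1, 2 without Ang II replicate 2 and 0 otherwise. The glucose genes whose groups did not overlap then numbered 8 to 19, with 19 without Ang II replicate 1. Their median log2 change stayed above 0 in all settings (0.11 to 0.18). Libraries of equal number did not all deviate together (r = 0.14, 0.17 and -0.06), so the numbers were not taken as pairs. A fit with the replicate block called 0 genes, 0 of them glucose genes, against 6 and 0 without it.

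No reversed change was past the threshold. With the replicate block the log2 change was -0.29 for Slc2a1, -0.00 for Ldhb and -0.19 for Gbe1. In limma it was -0.07 (0.5 added) and -0.33 (0.1 added) for Slc2a1, and -0.06, -0.13 and -0.02 for Gbe1 with 0.5, 0.1 and 1 added. In voom with quality weights it was 0.19 for Hk2, -0.00 for Aldoa, -0.08 for Tpi1, -0.02 for Pgk1 and -0.12 for Ldha. Leaving out 1 library gave log2 changes of -0.15 to 0.78 for Slc2a1, -0.22 to 0.23 for Hk2, -0.04 to 0.07 for Pfkl, -0.11 to 0.80 for Aldoa, -0.12 to 0.57 for Tpi1, -0.02 to 0.21 for Pgk1, -0.14 to 0.42 for Ldha and -0.13 to 0.38 for Ldhb. The ranges were -0.12 to 0.35 for Pfkfb2, -0.03 to 0.28 for Pygm, -0.02 to 0.78 for Phka1, -0.28 to 0.43 for Gbe1 and -0.45 to 0.12 for G6pdx. Log2 ratios ranged from -0.39 to 1.79 for Slc2a4 to Slc2a1, -0.03 to 0.87 for Hk2 to Hk1, -0.52 to 0.57 for Ldha to Ldhb and -0.02 to 0.14 for Pygb to Pygm. The cause was not tested. With 3 hearts a group, 1 of which stood apart, and counts that are estimates, small changes could not be detected, and a missed threshold does not show equal levels. Summing near-identical copies and testing overlap in CPM were chosen after seeing the data.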
